A study of Mus musculus with 21 samples.

Results

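The transcripts of the ubiquitin-specific proteases were followed through the last steps of male germ cell development in the mouse. The members were all genes whose listed symbol begins with Usp followed by a digit, which gave 56 of the 24456 genes in the count tables. The rule used the name alone and no measured value. It takes in *Usp6nl*, a Rab GTPase-activating protein named for its likeness to USP6 that is not a protease, and leaves out genes of the same protein fold under other names. Each of 3 germ cell stages (pachytene spermatocytes in meiosis, round spermatids after it, and condensing spermatids) had 3 *H2al2* WT and 3 *H2al2* KO libraries. Spermatozoa had 2 *H2al2* WT libraries and 1 *H2al2* KO library, 21 libraries in all. *H2al2* encodes H2A.L.2, a histone H2A variant that appears late in spermatid development. The tissue was labelled testis for all samples, including spermatozoa, and the labels give no strain, age or form of the KO allele. They do not say which replicates came from separate animals, so p-values measure the spread between these libraries, which may in part be technical.

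Ubiquitin-specific proteases are cysteine proteases that cut ubiquitin, a small protein tag, from other proteins or from ubiquitin chains. They are the largest family of deubiquitinases. Their targets include histones H2A and H2B, whose ubiquitylated forms are abundant in spermatids before histones give way to transition proteins and protamines. Other members recycle ubiquitin at the proteasome, sort receptors and vesicles, act in the cell cycle and DNA repair, or serve in the spliceosome.

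The 250 bases before the RefSeq start site (GRCm38.p6, the mm10 assembly) were available for 43 members. Those of *Usp50* and *Usp26*, which rose from pachytene spermatocytes to round spermatids, and of *Usp10* and *Usp40*, which fell, are shown because these members moved in opposite directions at that step. The window of *Usp50* is on chr2:126783461-126783710 (minus strand) and that of *Usp26* on chrX:51801234-51801483 (minus strand). The window of *Usp10* is on chr8:119910110-119910359 (plus strand) and that of *Usp40* on chr1:88008552-88008801 (minus strand). Each sequence reads 5′ to 3′ towards the start site, and capitals mark the core of the MYB motif, AACTG on either strand, which *Usp50* and *Usp10* lack here.
*Usp50*: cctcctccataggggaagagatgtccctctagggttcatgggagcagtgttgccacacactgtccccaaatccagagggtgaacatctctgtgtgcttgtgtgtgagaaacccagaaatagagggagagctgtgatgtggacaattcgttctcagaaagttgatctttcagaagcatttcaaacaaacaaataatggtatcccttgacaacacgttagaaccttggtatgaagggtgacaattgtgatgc
*Usp26*: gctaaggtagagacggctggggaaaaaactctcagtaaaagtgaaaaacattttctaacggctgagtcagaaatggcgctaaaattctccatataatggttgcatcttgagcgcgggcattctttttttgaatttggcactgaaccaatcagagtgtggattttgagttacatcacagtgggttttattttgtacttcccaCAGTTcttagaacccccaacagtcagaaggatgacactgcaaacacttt
*Usp10*: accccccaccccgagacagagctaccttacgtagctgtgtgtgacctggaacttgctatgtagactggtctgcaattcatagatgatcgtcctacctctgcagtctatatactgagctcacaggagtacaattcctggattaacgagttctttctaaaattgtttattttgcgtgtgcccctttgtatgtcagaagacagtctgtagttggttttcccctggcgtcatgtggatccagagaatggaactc
*Usp40*: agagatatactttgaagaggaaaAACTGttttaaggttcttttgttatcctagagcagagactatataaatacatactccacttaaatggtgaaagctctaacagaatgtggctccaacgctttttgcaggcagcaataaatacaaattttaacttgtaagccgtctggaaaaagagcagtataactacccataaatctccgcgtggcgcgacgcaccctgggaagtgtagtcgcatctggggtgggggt

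The GC content of these windows was 46.0% for *Usp50*, 41.2% for *Usp26*, 46.4% for *Usp10* and 42.0% for *Usp40*. Over the members that rose and the members that fell between these stages the median GC content was the same, 63.4% in 16 and 14 windows, and it was 67.4% in the 8 windows of members that did not pass the test. The MYB core lay in 10 of the 44 windows of the 43 members (22.7%) and in 39.1% of 32851 windows of all genes. The full cyclic AMP response element TGACGTCA, searched on both strands, lay in none of the 44 windows, so that the motifs did not overlap in them, and in 1.55% of all windows. A match or its absence describes letters in these windows only.

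Counts on genes ranged from 2772995 to 8201682 per library, and 34.6% to 57.7% of the counted read pairs fell in rows that name no gene. *H2afb1*, the older symbol of the H2A.L.2 gene, served as the check of the KO. Its levels, in CPM (counts scaled to library totals after TMM normalization), were 201, 206 and 211 in the 3 WT round spermatid libraries and 25.3, 25.4 and 20.7 in the 3 KO libraries. In pachytene spermatocytes they were 40.8, 36.7 and 14.5 against 4.81, 4.92 and 3.16, so the KO libraries held less of this transcript without losing it. The pachytene and round spermatid marker lists were each highest in the libraries of that label, with 2497 to 3036 CPM in WT pachytene cells and 1620.4 to 1758 CPM in WT round cells. The pachytene list summed to 1823 to 1971 CPM in WT round and 1618 to 1906 CPM in WT condensing cells. The round list summed to 917 to 1138 CPM in WT pachytene and 959 to 1063 CPM in WT condensing cells. The condensing spermatid list did not separate the last stages, with 24598 to 27155 CPM in WT round and 23918 to 35814 CPM in WT condensing cells. A Sertoli cell list of 7 genes summed to 40.3 to 58.7 CPM in WT round and 409 to 552 CPM in WT condensing spermatids. A macrophage list of 6 genes summed to 692 to 743 CPM in WT spermatozoa and 3447 CPM in the KO spermatozoa library, against at most 32.0 CPM in the other stages. In these bulk fractions, fewer cells of a type and less RNA per cell cannot be told apart.

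Most members were expressed in these cells. In WT round spermatids 48 of the 56 members reached a mean of 1 CPM (85.7%), against 55.1% of all genes listed. The summed level of the members was 6641 ± 659 CPM (SD, n = 3) in WT pachytene spermatocytes, 8294 ± 359 CPM in WT round spermatids and 6481 ± 215 CPM in WT condensing spermatids. It was 3591 ± 99.5 CPM (n = 2) in WT spermatozoa, below every library of the earlier stages. The KO sums were 6971 ± 119.6, 8132 ± 515 and 6849.7 ± 129.8 CPM in the 3 stages and 3449.8 CPM in spermatozoa. The ranges of the WT and KO libraries overlapped in each of these 3 stages.

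Per kilobase of exon, *Usp1* stood highest. *Usp1*, which removes ubiquitin from the DNA repair proteins FANCD2 and PCNA, averaged 203 CPM per kb over the 3 WT stages. Next came *Usp2*, whose loss is known to impair male fertility, at 119.6 CPM per kb, and the endosomal enzyme *Usp8*, known in the testis for its link to acrosome formation, at 113 CPM per kb. *Usp7*, which acts on MDM2, p53 and histone H2B, averaged 60.6 CPM per kb, *Usp44*, an H2B deubiquitinase, 58.4 CPM per kb, and *Usp32*, an enzyme of the late endosome and Golgi, 55.1 CPM per kb. The median over the members in WT round spermatids was 3.86 CPM per kb, against 1.35 CPM per kb over all genes with any count.

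The order of these leading genes held across the stages only in part. *Usp1* was first in WT pachytene spermatocytes (214 CPM per kb), round spermatids (237) and condensing spermatids (158). Its values in single libraries were 797, 664 and 933 CPM in pachytene, 833, 930.1 and 893 CPM in round and 588, 679 and 498 CPM in condensing WT cells. In WT spermatozoa *Usp2* led with 82.6 CPM per kb and *Usp32* followed with 58.7, while *Usp1* stood at 36.5. *Usp2* and *Usp8* lay close to each other in WT round spermatids, at 139.6 and 139 CPM per kb. At the other end, *Usp17la*, *Usp17lc* and *Usp17ld* had no count in any library, *Usp17lb* and *Usp17le* had 1 count each over all 21 libraries, and *Usp13* and *Usp18* were too low to be tested between WT stages. The *Usp17*-like genes are near-identical copies, and read pairs that matched several genes were not counted, so their zeros cannot be read as absence.

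**Figure D1:**
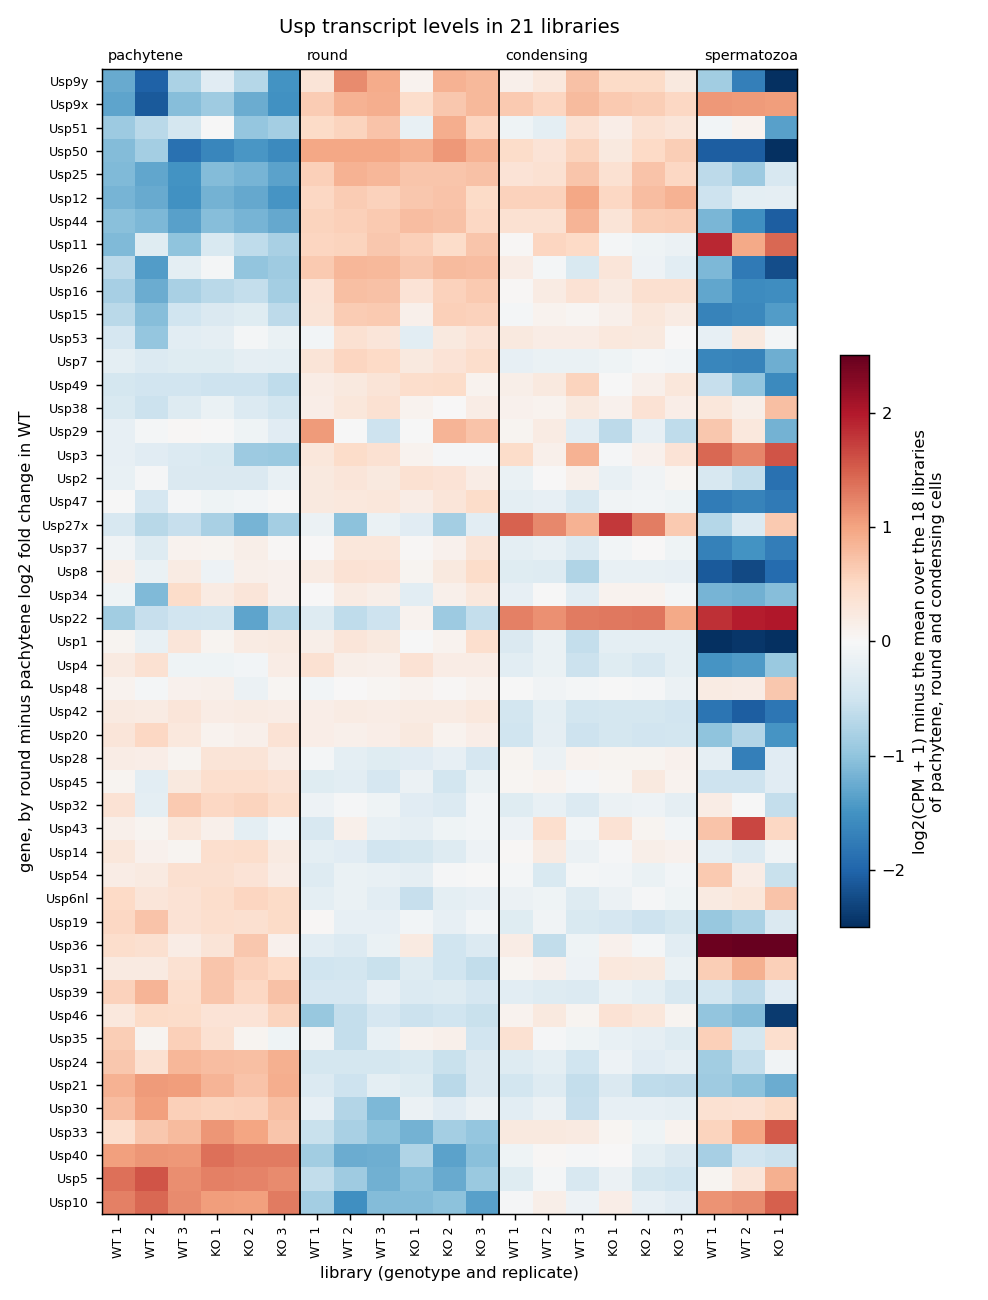
Levels of the 49 Usp genes tested between WT stages in each of the 21 libraries. Rows are genes ordered by their round minus pachytene log2 fold change in WT, columns are libraries, and colour is log2(CPM + 1) minus the gene's mean over the 18 pachytene, round and condensing libraries. The upper rows turn from blue to red between pachytene and round cells and the lower rows from red to blue, in WT and KO libraries alike, and *Usp36* is at the top of the colour scale in spermatozoa.

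The first comparison asked how the members change when cells leave meiosis. From pachytene spermatocytes to round spermatids in WT, 19 of 49 members tested rose and 18 fell (edgeR quasi-likelihood test, adjusted p under 0.05 over 14011 genes). Over all genes tested 70.3% changed, 34.4% upwards and 35.9% downwards, and the members' shares of 38.8% and 36.7% were close to these. The median log2 fold change was 0.18 over the members and -0.02 over all genes. The round and pachytene libraries did not overlap for 38 members, against 73.2% of all genes. A share near the background is not a result about the family, and the values below describe which members moved and in which direction.

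The largest rises were those of *Usp9y*, *Usp9x*, *Usp51* and *Usp50*. *Usp9x* and *Usp9y* are X- and Y-linked copies of a large deubiquitinase known to act on signalling and adhesion proteins. *Usp9x* was at 42.2, 24.1 and 50.1 CPM in the WT pachytene libraries and at 167, 197 and 201 CPM in the WT round spermatid libraries. The groups did not overlap and *Usp9x* rose 4.96-fold (log2 fold change 2.31 ± 0.22 SE, adjusted p = 8.41e-07). *Usp9y* went from 5.54, 2.87 and 8.06 CPM to 18.7, 34.6 and 29.0 CPM (log2 fold change 2.37 ± 0.32 SE, adjusted p = 1.99e-05). In both genes replicate 2 was the lowest of the WT pachytene libraries. Over genes, exon length correlated with the log2 difference of replicate 1 minus 2 at 0.241 and of 2 minus 3 at -0.368. For replicate 1 minus 3 the correlation was -0.306. Longer genes thus tended to be lowest in replicate 2 and highest in replicate 3. *Usp9x* has 15.1 kb of exon and *Usp9y* 8.09 kb, and the part of length in their rises was not tested.

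*Usp50*, a relative of *Usp8* that is thought to lack protease activity, went from 42.0, 49.4 and 23.9 CPM in WT pachytene to 176, 177 and 178 CPM in WT round spermatids. The 3 round libraries lay within a few CPM of each other and far above every pachytene library (log2 fold change 2.23 ± 0.20 SE, adjusted p = 5.63e-07). *Usp51*, a histone H2A deubiquitinase of the DNA damage response, stayed low, with 0.361, 0.598 and 0.88 CPM in pachytene and 2.55, 2.78 and 3.19 CPM in round WT cells (log2 fold change 2.24 ± 0.39 SE, adjusted p = 0.000197). Its pachytene values rest on 3 to 6 counts per library.

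The largest falls were those of *Usp10*, *Usp5*, *Usp40* and *Usp33*. *Usp10*, the p53 deubiquitinase that binds the stress granule protein G3BP1, was at 25.4, 28.7 and 23.9 CPM in WT pachytene and 5.10, 2.78 and 4.20 CPM in WT round cells. It fell 6.28-fold with no overlap (log2 fold change -2.65 ± 0.19 SE, adjusted p = 1.23e-07). *Usp5*, which takes apart free ubiquitin chains, went from 103, 117 and 88.1 CPM to 25.0, 20.7 and 16.4 CPM (log2 fold change -2.28 ± 0.17 SE, adjusted p = 1.31e-07). These 2 enzymes lost most of their signal between the stages. *Usp40* went from 51.3, 54.3 and 53.2 CPM to 13.2, 9.87 and 10.0 CPM (log2 fold change -2.23 ± 0.14 SE, adjusted p = 3.58e-08). *Usp33*, which recycles receptors together with *Usp20*, went from 16.5, 19.8 and 21.6 CPM to 7.79, 6.40 and 5.36 CPM (log2 fold change -1.53 ± 0.17 SE, adjusted p = 3.86e-06). A Leydig cell list of 6 genes moved with this step (its sum was 69.7 to 139.7 CPM in WT pachytene and 9.94 to 12.6 CPM in WT round cells), and its part in the falls was not tested. The sums of other lists rose at this step. The peritubular myoid list of 5 genes summed to 55.9 to 96.2 CPM in WT pachytene and 328 to 335 CPM in WT round cells. Of its genes 5 and then 4 were at 1 CPM or more, so not all of them rose. The macrophage list summed to 2.20 to 4.42 CPM and 20.01 to 24.2 CPM, with 1 and then 5 genes at 1 CPM or more. The part of these lists in the members' rises was not tested. The condensing spermatid list already summed to 2001 to 5037 CPM in WT pachytene libraries, against 24598 to 27155 CPM in WT round cells.

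**Figure D2:**
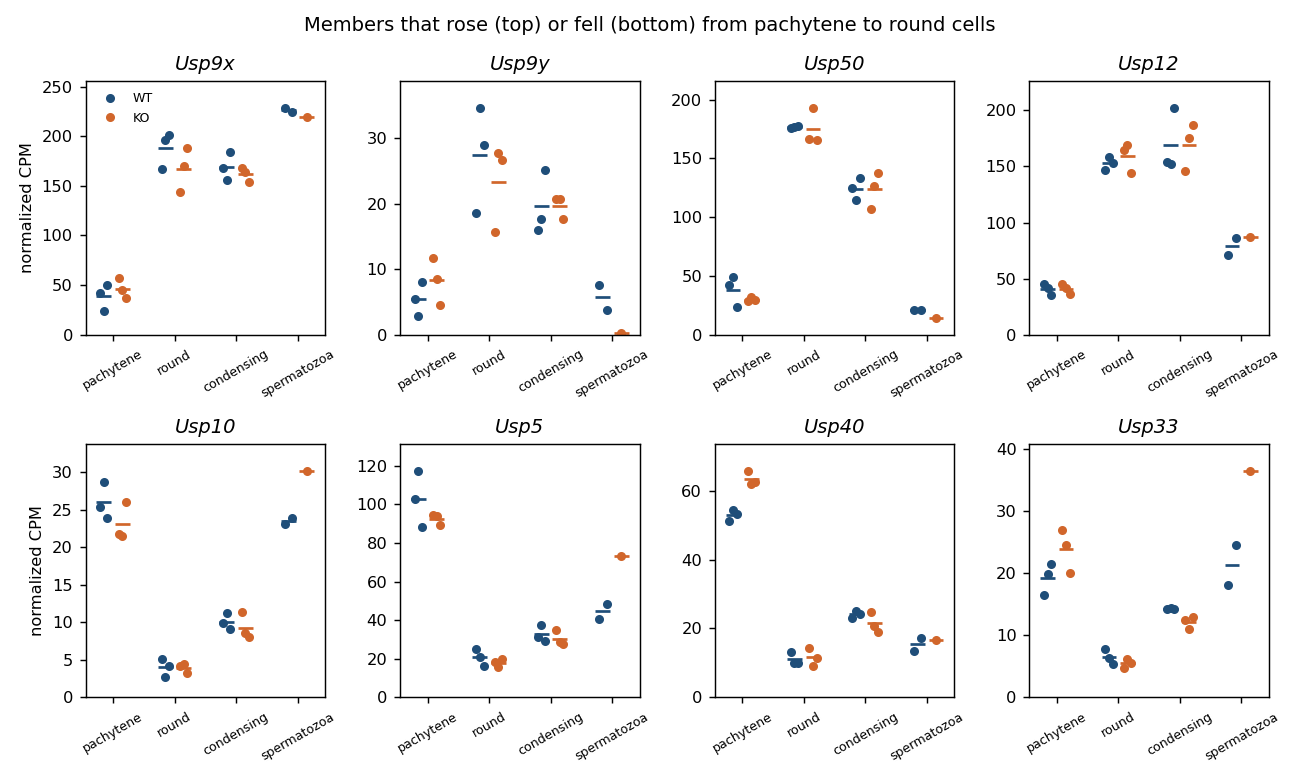
Normalized CPM of 8 Usp genes in every library by stage, WT in blue and *H2al2* KO in orange, with bars at the group means; each panel starts at 0. *Usp9x*, *Usp9y*, *Usp50* and *Usp12* are higher in round spermatids than in every pachytene library, and *Usp10*, *Usp5*, *Usp40* and *Usp33* are lower.

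Among the 13 members known to act on ubiquitylated histones, 7 rose (53.8%), 3 fell (23.1%) and 3 did not pass the test, where 34.4% of all genes rose and 35.9% fell, with a median log2 fold change of 0.72 against -0.02 over all genes. *Usp12*, which works with the WD-repeat proteins encoded by *Wdr48* and *Wdr20*, went from 45.1, 41.9 and 35.3 CPM to 147, 159 and 153 CPM (log2 fold change 1.94 ± 0.14 SE, adjusted p = 1.47e-07). *Usp16*, a deubiquitinase of H2A at lysine 119, went from 97.8, 73.5 and 98.2 CPM to 222, 292 and 288 CPM (log2 fold change 1.60 ± 0.16 SE, adjusted p = 1.42e-06). Both were higher in every round library than in any pachytene library. *Usp44*, the H2B enzyme also known from the spindle checkpoint, went from 98.9, 94.2 and 79.5 CPM to 304, 309.6 and 325 CPM (log2 fold change 1.81 ± 0.15 SE, adjusted p = 3.42e-07). *Usp51*, *Usp7*, *Usp49* and *Usp3* also rose, with log2 fold changes of 2.24, 0.79, 0.75 and 0.72. About 51.2% of the exon bases of *Usp49* overlap the protein-coding *Gm20517* on the same strand. *Gm20517* is not among the counted genes, so the counts of *Usp49* may include its reads. *Usp21* (-1.38), *Usp46* (-1.05) and the nucleolar *Usp36* (-0.68) fell. The fall of *Usp36* was lost under DESeq2 (adjusted p = 0.0541), without WT pachytene replicate 1 (log2 fold change -0.64, adjusted p = 0.0604) and without WT round replicate 2 (-0.63, adjusted p = 0.0703), and over its alternatives its adjusted p ranged from 0.0042 to 0.0703. The list was chosen with results of these data known, so its direction is not independent evidence.

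Members on the sex chromosomes rose between these stages. Transcription from the X and Y chromosomes is known to be silenced in pachytene cells and to resume in part in round spermatids. In WT, 5 of the 6 sex-linked members rose and none fell, and among all genes rises were called for 346 of 492 X-linked genes (70.3%) and 11 of 12 Y-linked genes tested. Among the 43 autosomal members tested, 14 rose and 18 fell, beside 34.4% of all genes on any chromosome rising and 35.9% falling. *Usp11*, a partner of BRCA2, went from 1.56, 3.47 and 1.76 CPM to 6.98, 7.09 and 7.83 CPM (log2 fold change 1.70 ± 0.29 SE, adjusted p = 0.00014). *Usp26*, an X-linked gene expressed mainly in testis, went from 6.50, 3.47 and 8.94 CPM to 17.6, 19.9 and 19.7 CPM (log2 fold change 1.64 ± 0.26 SE, adjusted p = 8.54e-05). The exception was *Usp27x*, an X-linked relative of *Usp22*, with 0.963, 0.598 and 0.733 CPM in pachytene and 1.34, 0.278 and 1.30 CPM in round WT cells (log2 fold change 0.37 ± 0.52 SE, adjusted p = 0.541).

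Members with roles outside chromatin moved in both directions. Both measured members that recycle ubiquitin, *Usp5* and the proteasome-bound *Usp14*, fell, with *Usp14* at -0.48 on the log2 scale (adjusted p = 0.00634). About 26.0% of the exon bases of *Usp14* overlap *Thoc1* on the opposite strand, and the counting was stranded. Beside these counts, 34.4% of all genes rose and 35.9% fell. Of 9 members of vesicle traffic, mitochondria and endoplasmic reticulum, 2 rose (*Usp9x* and *Usp9y*) and 4 fell (median -0.37). *Usp30*, the deubiquitinase of the mitochondrial outer membrane that opposes mitophagy, went from 55.4, 65.8 and 48.7 CPM to 27.8, 18.9 and 14.1 CPM (log2 fold change -1.45 ± 0.21 SE, adjusted p = 3.9e-05). *Usp19*, a deubiquitinase anchored in the endoplasmic reticulum, fell by 0.63 on the log2 scale (adjusted p = 0.000769). Of 6 members of the cell cycle and DNA damage response, 2 rose (*Usp37* and *Usp47*) and 2 fell (*Usp24* and *Usp28*). The call of *Usp37* was lost in 9 of 16 alternatives (adjusted p from 0.00759 to 0.4), that of *Usp28* in 8 of 16 (0.00294 to 0.146) and that of *Usp47* in 1 of 16 (0.00177 to 0.15). The largest change there was the fall of *Usp24* from 320.3, 259 and 356 CPM to 146, 147 and 147 CPM (log2 fold change -1.06 ± 0.14 SE, adjusted p = 1.31e-05).

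The remaining groups were small. Among *Usp4*, *Usp11*, *Usp15* and *Usp39*, which are close relatives or spliceosome factors, *Usp11* and *Usp15* rose and *Usp39* fell. *Usp15* went from 248, 189 and 279.9 CPM to 495, 616 and 627 CPM (log2 fold change 1.31 ± 0.16 SE, adjusted p = 7.42e-06). *Usp39*, a protein of the U4/U6.U5 spliceosome particle without protease activity, went from 56.9, 69.2 and 51.9 CPM to 28.2, 28.1 and 32.8 CPM (log2 fold change -0.97 ± 0.13 SE, adjusted p = 1.93e-05). *Usp25* rose from 76.8, 67.2 and 58.2 CPM to 251, 305 and 297 CPM (log2 fold change 2.11 ± 0.15 SE, adjusted p = 9.83e-08). *Usp25* is known from interferon and cytokine signalling, and its companion in that list, the ISG15 protease *Usp18*, had at most 2 counts in any pachytene or round library. *Usp6nl* fell, at -0.60 on the log2 scale (adjusted p = 0.000441). *Usp48*, a nuclear member, was called at neither step in WT, with 58.6, 53.7 and 59.4 CPM in pachytene, 53.1, 55.6 and 57.4 CPM in round and 54.6, 52.0 and 53.2 CPM in condensing WT cells.

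Some close relatives moved in opposite directions, such as *Usp12*, which rose, and *Usp46*, which fell. *Usp25* and *Usp16* rose, while the falls of their relatives *Usp28* (-0.33) and *Usp45* (-0.34) were lost in 8 and 12 of 16 alternatives, DESeq2 among them for both and the replicate block for *Usp45* (adjusted p from 0.00294 to 0.146 and from 0.00429 to 0.167). The ratio of the levels per kb of each of 15 pairs of related members was taken within each library, where the scaling between libraries cancels. The pairs were chosen after the values were seen, and their ratios are given as a description. *Usp12* and *Usp46*, which share the partners *Wdr48* and *Wdr20*, stood at a ratio of 1.57 (geometric mean) in WT pachytene and 12.6 in WT round spermatids. In KO libraries the ratio was 1.55 and 11.9. The log2 ratio was 0.65 ± 0.28 (SD, n = 3) in WT pachytene and 3.65 ± 0.25 in WT round cells, and the 6 round libraries of both genotypes lay above the 6 pachytene libraries.

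*Usp25* and *Usp28*, a further related pair, went from a ratio of 3.12 to 16.9 in WT and from 3.04 to 17.5 in KO. *Usp16* and *Usp45* went from 1.58 to 6.04 in WT and from 1.45 to 5.39 in KO. In each of these pairs the first member gained on the second, with no overlap between round and pachytene libraries. *Usp8* and *Usp50* overlap in span on opposite strands of chromosome 2, and their ratio fell from 9.90 to 2.44 in WT and from 11.9 to 2.39 in KO. *Usp20* and *Usp33* went from 8.95 in pachytene to 23.0 in round and back to 6.95 in condensing WT cells. *Usp9x* and *Usp9y* kept nearly the same ratio, 3.91 in pachytene and 3.79 in round WT cells, with overlapping libraries.

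The KO libraries gave a second measurement of the same steps in libraries that the WT fit did not use. From pachytene to round cells 18 of 48 members tested rose and 18 fell in KO, where 36.5% of all genes rose and 38.4% fell (74.9% in all). The groups did not overlap for 34 members, against 74.1% of all genes. Of 48 members tested in both genotypes, 34 were called in the same direction in both and none in opposite directions (65.5% of all genes were called in the same direction), which is 91.9% of the WT calls and 94.4% of the KO calls. Over all genes the same share was 92.3% of the WT calls and 87.0% of the KO calls. Across the 48 members the log2 fold changes had a Pearson r of 0.965, as a description across genes, which are not replicates, and over all genes r was 0.945. *Usp27x* differed most, with 0.37 ± 0.52 SE in WT and 1.30 ± 0.70 in KO and a call in neither. *Usp9y* stood at 2.37 ± 0.32 in WT and 1.48 ± 0.25 in KO, and *Usp33* stood at -1.53 ± 0.17 and -2.13 ± 0.18. The interaction of stage and genotype was called for none of 49 members by edgeR at either step (0% of 14479 genes called) and for none by DESeq2. For the first step 2 members, *Usp30* and *Usp33*, had an unadjusted edgeR p under 0.05, as did 1050 of all genes. For the second step 0 members and 407 of all genes did.

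**Figure D3:**
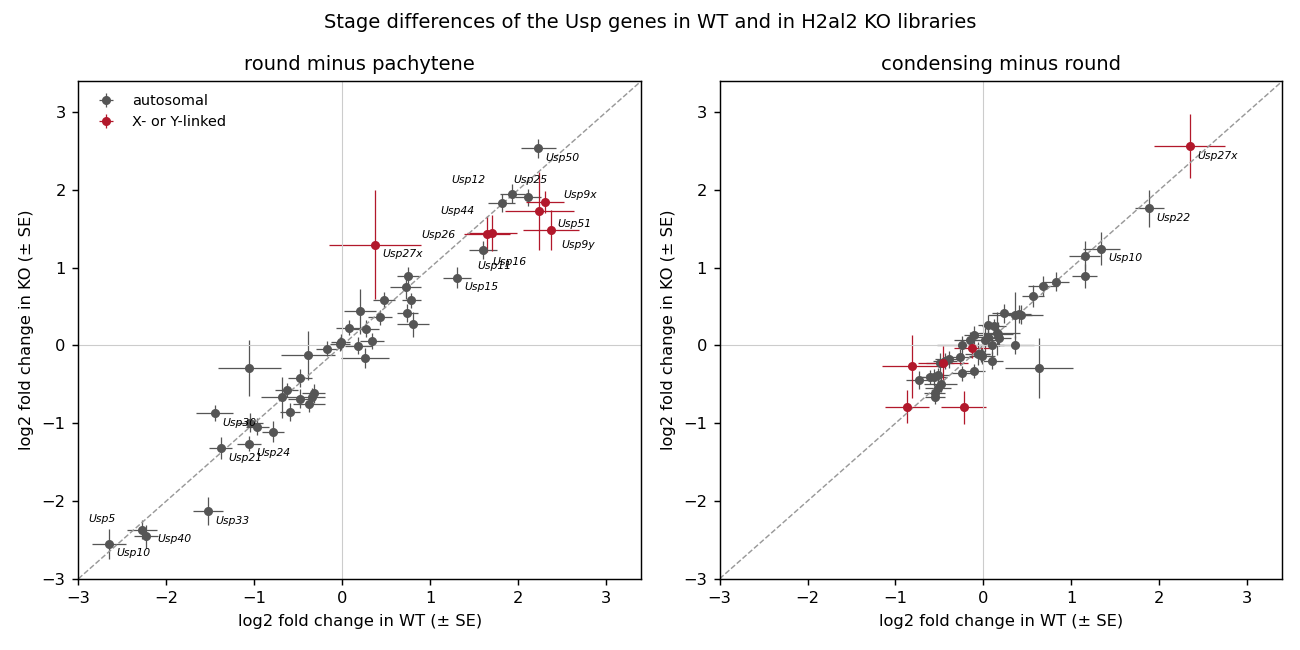
Log2 fold change of each Usp gene in WT (horizontal) and in *H2al2* KO (vertical), each with its standard error, for round minus pachytene (left) and condensing minus round (right). Red points are X- or Y-linked members and the dashed line marks equal values; the genes lie along the line, with r of 0.965 on the left and 0.936 on the right.

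The next step, from round to condensing spermatids, moved fewer members. In WT 10 of 49 rose and 11 fell, against 28.3% of all genes rising and 21.8% falling (50% in all). In KO 12 of 48 rose and 12 fell, with 29.7% and 24.5% of all genes (54.2% in all). The groups did not overlap for 26 members in WT (61.7% of all genes) and 27 in KO (61.3%). Of 48 members 19 were called in the same direction in both genotypes and none in opposite directions (90.5% of WT and 79.2% of KO calls), where 43.2% of all genes were called in the same direction. This comparison shares its round spermatid libraries with the first.

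The largest rises were those of *Usp27x*, *Usp22*, *Usp10* and *Usp33*. *Usp22* is the deubiquitinase of the SAGA coactivator that acts on histone H2B, and *Usp27x* is its X-linked relative. *Usp22* was at 7.25, 5.70 and 6.23 CPM in WT round and 23.7, 21.8 and 24.6 CPM in WT condensing spermatids. It rose 3.70-fold with no overlap (log2 fold change 1.89 ± 0.17 SE, adjusted p = 3.36e-06) and by 1.76 ± 0.23 in KO. *Usp27x* went from 1.34, 0.278 and 1.30 CPM to 6.15, 4.94 and 3.69 CPM (log2 fold change 2.35 ± 0.41 SE, adjusted p = 0.000483) and by 2.57 ± 0.41 in KO. In pachytene cells *Usp22* had been at 4.69, 5.98 and 6.45 CPM, and neither gene was called at the end of meiosis (*Usp22* log2 fold change 0.20 ± 0.19 SE, adjusted p = 0.343). *Usp10* went from 5.10, 2.78 and 4.20 CPM to 9.85, 11.2 and 9.14 CPM (log2 fold change 1.34 ± 0.21 SE, adjusted p = 0.000234) and *Usp33* from 7.79, 6.40 and 5.36 CPM to 14.3, 14.4 and 14.2 CPM (log2 fold change 1.15 ± 0.18 SE, adjusted p = 0.000213). Every WT condensing library lay below every WT pachytene library for both genes.

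Markers of somatic cells moved with this step. The Sertoli list, with 5 of 7 genes at 1 CPM or more in WT round and 6 of 7 in WT condensing cells and none at 0, rose as given above, and was 329 to 412 CPM in KO condensing cells. The Leydig list summed to 9.94 to 12.6 CPM in WT round and 130.2 to 199 CPM in WT condensing cells, and a peritubular myoid list to 328 to 335 CPM and 306 to 413 CPM. Their part in the rises of *Usp22*, *Usp27x*, *Usp10* and *Usp33* was not tested. Among the histone-directed members 3 of 13 rose (*Usp22*, *Usp27x* and *Usp46*) and 2 fell (*Usp7* and *Usp42*), shares of 23.1% and 15.4% beside 28.3% and 21.8% over all genes.

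The largest falls were those of *Usp26*, *Usp8*, *Usp7* and *Usp1*. *Usp26* went from 17.6, 19.9 and 19.7 CPM in WT round to 12.3, 10.3 and 8.08 CPM in WT condensing spermatids (log2 fold change -0.87 ± 0.25 SE, adjusted p = 0.0122). Without WT condensing replicate 3 its log2 fold change was -0.74 (adjusted p = 0.0513), and over its alternatives the adjusted p ranged from 0.00147 to 0.0513. *Usp8* went from 542, 607 and 600.1 CPM to 382, 376 and 280.3 CPM (log2 fold change -0.73 ± 0.15 SE, adjusted p = 0.00149). *Usp7* went from 577, 668 and 651 CPM to 397, 411 and 411 CPM (log2 fold change -0.61 ± 0.11 SE, adjusted p = 0.000715), and *Usp1* from 833, 930.1 and 893 CPM to 588, 679 and 498 CPM (log2 fold change -0.57 ± 0.15 SE, adjusted p = 0.00849). In KO the 4 genes fell by 0.79, 0.44, 0.41 and 0.41 on the log2 scale. *Usp1* and *Usp8*, which are among the 3 highest members per kb, thus fell in condensing cells of both genotypes, while *Usp9x*, *Usp12*, *Usp25* and *Usp44* were not called.

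In spermatozoa more members were lower than higher. Between the 3 WT condensing spermatid and 2 WT spermatozoa libraries 14 of 49 members rose and 26 fell, where 72.4% of all genes changed, 36.6% upwards and 35.8% downwards. The groups did not overlap for 45 members, against 81.3% of all genes. The median log2 fold change was -0.45 over the members and -0.0001 over all genes. The 2 WT spermatozoa libraries carried 1803 to 1920.2 CPM of a list of 6 epididymis genes, which summed to at most 2.16 CPM in any other stage, in addition to the macrophage list given above. Both lists move with every difference of spermatozoa, and their part was not tested. WT spermatozoa also held 14.8% and 15.4% of gene counts in Rn45s and mt-Rnr2, which are ribosomal RNA genes.

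The largest falls were those of *Usp27x*, *Usp50*, *Usp1* and *Usp44*. *Usp50* was at 125, 115 and 134 CPM in WT condensing spermatids and 20.7 and 20.8 CPM in WT spermatozoa (log2 fold change -2.53 ± 0.18 SE, adjusted p = 5.09e-11). *Usp1* went from 588, 679 and 498 CPM to 133 and 139.8 CPM (log2 fold change -2.06 ± 0.17 SE, adjusted p = 9.02e-10) and *Usp44* from 268, 268 and 373 CPM to 92.7 and 70.1 CPM (log2 fold change -1.85 ± 0.19 SE, adjusted p = 1.64e-08). *Usp27x* returned to 0.583 and 1.04 CPM (log2 fold change -2.56 ± 0.58 SE, adjusted p = 0.000543), which rests on 2 and 3 counts. Among the histone-directed members 3 of 13 rose and 8 fell, and of the cell cycle and DNA damage members 0 rose and 5 of 6 fell, beside 36.6% of all genes rising and 35.8% falling. Of those 5, the call of *Usp24* (-0.34) was lost in 7 of 11 alternatives (adjusted p from 0.00204 to 0.409). *Usp28* (-0.75) moved to -0.19 (adjusted p = 0.536) without WT spermatozoa replicate 2 and to -1.82 without replicate 1 (adjusted p from 0.00029 to 0.536 over its alternatives).

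Against that fall stood *Usp36*, *Usp43*, *Usp11* and *Usp10*. *Usp36*, a nucleolar enzyme of ribosomal RNA synthesis, went from 5.85, 2.91 and 4.57 CPM in WT condensing cells to 31.8 and 38.5 CPM in WT spermatozoa, and was at 58.2 CPM in the KO library. It rose 8.16-fold (log2 fold change 3.03 ± 0.25 SE, adjusted p = 9.32e-10). *Usp10* went from 9.85, 11.2 and 9.14 CPM to 23.0 and 23.9 CPM (log2 fold change 1.26 ± 0.22 SE, adjusted p = 2.31e-05). The calls of *Usp43* and *Usp11* were each lost without 1 library. *Usp43* was at 4.66 and 10.1 CPM in WT spermatozoa (log2 fold change 1.46 ± 0.42 SE, adjusted p = 0.00371), with a log2 fold change of 0.83 (adjusted p = 0.172) without replicate 2 and an adjusted p of 0.00102 to 0.172 over its alternatives. *Usp11* was at 19.5 and 9.71 CPM (log2 fold change 1.31 ± 0.31 SE, adjusted p = 0.000637), with 0.72 (adjusted p = 0.113) without replicate 1 and 1.38e-05 to 0.113 over its alternatives. *Usp9x*, at 228 and 225 CPM in WT spermatozoa against 168, 156 and 184 CPM in condensing cells, and *Usp22*, at 35.6 and 39.5 CPM, were also called higher (log2 fold changes 0.47 and 0.73). The call of *Usp9x* was lost without replicate 1 (0.47, adjusted p = 0.0518, range over its alternatives 2.01e-05 to 0.0518).

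**Figure D4:**
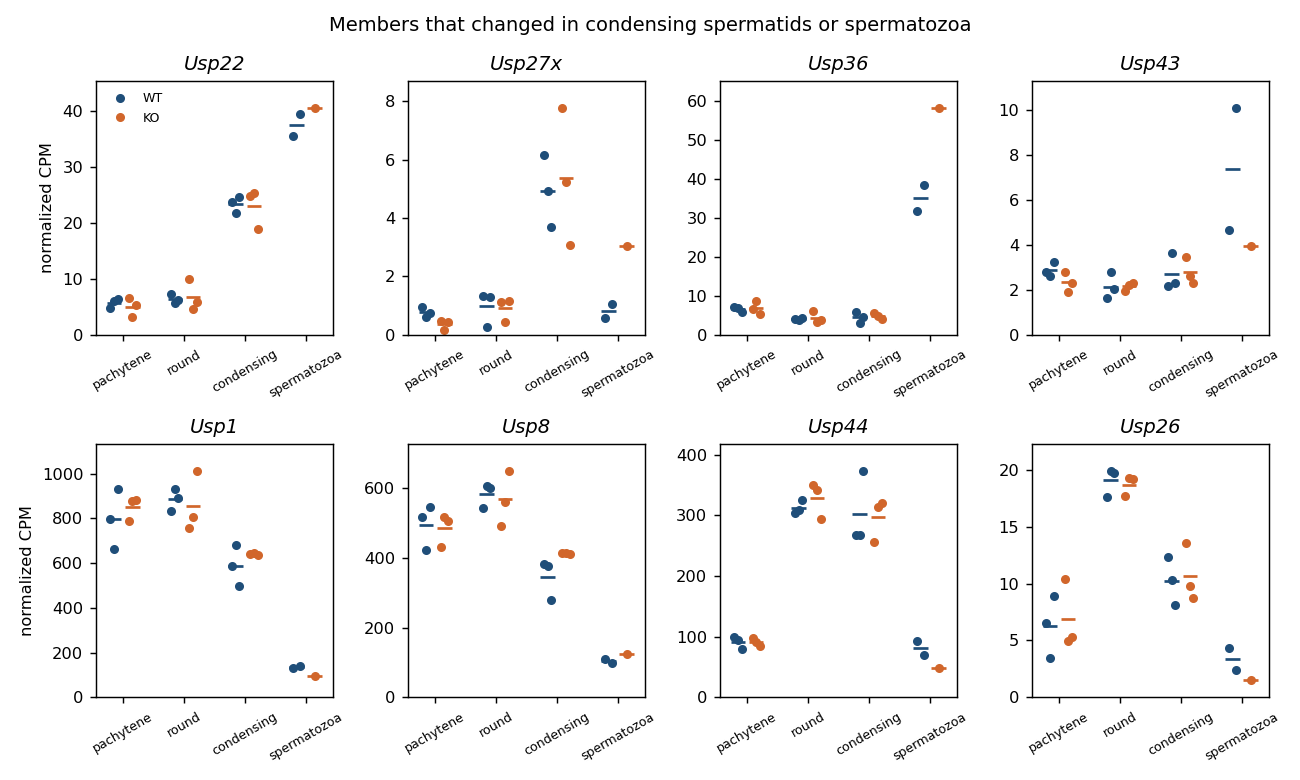
Normalized CPM of 8 Usp genes in every library by stage, WT in blue and *H2al2* KO in orange, with bars at the group means; each panel starts at 0. *Usp22* and *Usp27x* are higher in every condensing than in every round library, *Usp36* is highest in spermatozoa, and *Usp1* and *Usp8* are lower there than in every other library, while *Usp44* and *Usp26* in spermatozoa overlap their pachytene values.

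The single KO spermatozoa library has no replicate, and its values are given without a test. Of 48 members with at least 10 counts in any spermatozoa library, 25 were above both WT libraries, 17 below both and 6 between them. The same count was not made over all genes, so it is not a result about the members. *Usp2* was at 154 CPM against 426 and 369.8 CPM in WT, and *Usp46* at 5.48 against 16.0 and 14.9 CPM. *Usp18* had 29 counts in the KO library and 2 and 3 in WT, and *Usp9y* had 1 count in KO and 26 and 11 in WT. This library also differed in the marker lists of other cells, among them the macrophage list given above. It held 557 CPM of the epididymis list, with 3 of 6 genes at 1 CPM or more. The Sertoli list summed to 1393 CPM against 226 to 267 CPM in WT spermatozoa. In each genotype 4 of the 7 Sertoli list genes were at 1 CPM or more. Genotype and these differences cannot be told apart in 1 library.

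The last comparison asked what differs between *H2al2* KO and WT cells of the same stage. Within no stage was any member called between KO and WT. In pachytene spermatocytes none of 46 members tested passed edgeR (0% of 12236 genes called), with 3 members and 815 of all genes at an unadjusted p under 0.05. That background rests on 1 library: without WT pachytene replicate 3, 156 of 12555 genes were called higher in KO and 87 lower, and still none of the members, of which 15 then had an unadjusted p under 0.05 (2607 of all genes did). In round spermatids none of 48 passed (0.0156% of 12804 genes called), with 2 members and 753 of all genes at an unadjusted p under 0.05. In condensing spermatids none of 48 passed (0.00728% of 13734 genes called), with 2 members and 870 of all genes at an unadjusted p under 0.05. DESeq2 called none of the members in any of the 3 stages. The WT and KO libraries did not overlap for 7 members in pachytene (11.4% of all genes), 1 in round (9.86%) and 9 in condensing cells (12.1%). The members' log2 differences lay between -0.57 and 0.67.

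The value that came closest was that of *Usp3*, a deubiquitinase of histones H2A and H2B that was singled out after its values were seen. *Usp3* was at 17.4, 16.4 and 15.7 CPM in WT and 15.4, 10.3 and 10.2 CPM in KO pachytene spermatocytes. In round spermatids it was at 25.0, 28.1 and 26.8 CPM in WT and 21.4, 19.8 and 19.9 CPM in KO, and in condensing spermatids at 28.2, 22.2 and 38.0 and 19.7, 22.0 and 25.8 CPM. The KO libraries were lower than every WT library in pachytene and round cells and overlapped WT in condensing cells. The KO minus WT log2 difference was -0.40 ± 0.19 SE (adjusted p = 0.656), -0.37 ± 0.11 (adjusted p = 0.616) and -0.39 ± 0.18 (adjusted p = 0.772). In condensing cells it was -0.16 without WT replicate 3, and in pachytene cells -0.64 without KO replicate 1. The Sertoli list summed to 42.2 to 45.8 CPM in WT and 16.4 to 31.4 CPM in KO pachytene cells. In round cells it summed to 40.3 to 58.7 and 30.2 to 39.2 CPM, and in condensing cells the ranges overlapped. The Leydig list overlapped in pachytene cells and was lower in KO in round and condensing cells. The peritubular myoid list overlapped in all 3 stages. The part of these lists in the values of *Usp3* was not tested.

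Averaged over the 3 stages in a fit of all 18 libraries, a contrast chosen after the single stages were seen, *Usp3* was lower by 0.38 ± 0.10 SE on the log2 scale (unadjusted p = 0.000759, adjusted p = 0.112) and lower in KO in 3 of 3 stages. None of 49 members was called there, where 0.256% of 14479 genes were. An unadjusted p under 0.05 was reached by 1515 of all genes and by 3 members, *Usp3*, *Usp45* and *Usp31*. Over the alternatives the adjusted p of *Usp3* ranged from 0.0294 to 0.232, and it passed 0.05 with no filter on low counts (0.0319), without KO pachytene replicate 1 (0.0294) and without WT condensing replicate 2 (0.0378). Across the 3 stages 13 of 46 members differed in the same direction, beside 28.9% of all genes. None of the members differed in that way with no overlap in each stage, and 0.233% of all genes did.

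*Usp30* in round spermatids turned on 1 library. It was at 27.8, 18.9 and 14.1 CPM in the 3 WT and 28.7, 26.0 and 28.7 CPM in the 3 KO libraries, so that WT replicate 1 lay with the KO libraries (log2 fold change 0.46 ± 0.19 SE, adjusted p = 0.79). Without WT round replicate 1 the log2 difference was 0.76 (adjusted p = 0.0176), a setting in which 131 genes were called higher and 133 lower of 13045, and without WT round replicate 3 it was 0.27, with an adjusted p of 0.0176 to 1 over the alternatives. *Usp31*, *Usp40* and *Usp45* in pachytene cells had log2 differences of 0.39 ± 0.13, 0.33 ± 0.11 and 0.43 ± 0.17 SE (adjusted p = 0.656 for each), the last 0.25 without WT replicate 2. *Usp11* in condensing cells differed by -0.57 ± 0.23 SE (adjusted p = 0.714), from 4.62, 6.98 and 6.85 CPM in WT to 4.32, 4.15 and 3.99 CPM in KO. The WT pachytene libraries held the least alike pair of any group: the median difference over all genes on the log2 scale was 0.314 between replicates 2 and 3, 0.206 between 1 and 3 and 0.169 between 1 and 2, and over the members 0.299, 0.174 and 0.201.

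**Figure D5:**
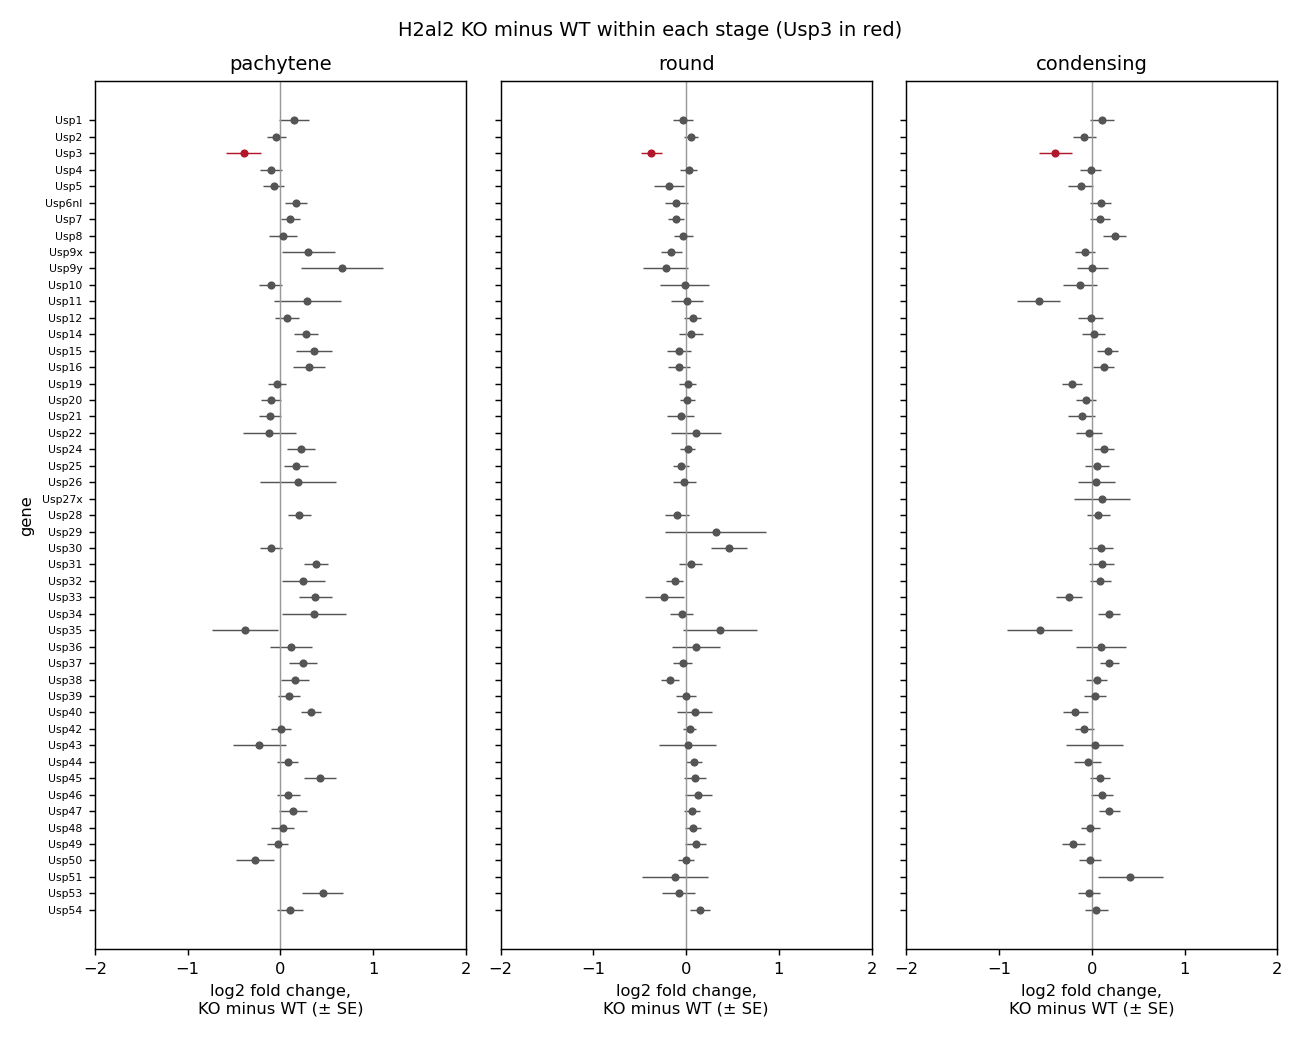
KO minus WT log2 fold change of each member tested, with its standard error, in pachytene spermatocytes, round spermatids and condensing spermatids. Points scatter around 0 in each panel, and *Usp3* (red) lies at -0.40, -0.37 and -0.39.

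The other genes of the ubiquitin system were counted by lists drawn up from textbook knowledge, again with results of these data known. From pachytene to round cells in WT, 14 of 34 deubiquitinases of other families rose and 12 fell (median log2 fold change -0.04), shares of 41.2% and 35.3% beside 34.4% and 35.9% over all genes, which is also the background of the lists that follow. Among the 9 partners of the Usp enzymes 2 rose and 7 fell, the largest being *G3bp1* (-2.69), the stress granule partner of *Usp10*, and the SAGA subunits *Eny2* (-1.37), *Atxn7* (-1.29) and *Atxn7l3* (-1.11), which hold *Usp22*. From round to condensing cells *G3bp1* (1.35) and *Eny2* (0.95) rose, while *Wdr20* (-0.71), *Gmps* (-0.64), *Ptpn23* (-0.40) and *Wdr20rt* (-0.33) fell. The partners *Atxn7*, *Atxn7l3* and *Wdr48* were not called there. At this step 28.3% of all genes rose and 21.8% fell. From pachytene to round cells 1 of 9 ubiquitin ligases that act on histones rose and 4 fell. *Huwe1* (1.44) rose, and the falls included *Rnf8* (-1.83), *Rnf2* (-1.76) and *Rnf20* (-1.49). Of 38 ubiquitin genes and E1 and E2 enzymes 17 rose and 10 fell between the same stages. These lists held no gene called between KO and WT in pachytene, round or condensing cells by edgeR, with 5, 2 and 3 of the other deubiquitinases at an unadjusted p under 0.05. Over all genes that level was reached by 815 of 12236, 753 of 12804 and 870 of 13734.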

How the data were processed

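Total RNA of fractionated mouse spermatogenic cells was depleted of ribosomal RNA, made into stranded libraries and sequenced as read pairs. The authors aligned reads to mm10 with STAR 2.7.11b and deposited raw counts per gene (HTSeq, reverse-stranded, read pairs matching several genes not counted). The 5 rows that name no gene, with 34.6% to 57.7% of counted pairs, were kept out of library sizes and tests. Libraries held 2772995 to 8201682 counts on genes.

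Counts were normalized by TMM, filtered with filterByExpr and tested with edgeR 4.0.16 in R 4.3.3 (quasi-likelihood, Benjamini-Hochberg adjustment over all genes, two-sided, threshold 0.05), within stage for KO against WT, and between stages within genotype. An interaction of stage and genotype was fitted on 18 libraries. Standard errors came from the log2 fold change and F statistic. DESeq2 1.42.0, its size factors, other count filters, a replicate block and leaving out each library were alternatives. The tests were also run on data simulated from their own fits, with changes put into well-counted genes. That run cannot show the effect of single libraries or how members with few counts behave.

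The members and gene lists were chosen with earlier results of these data known. Values per library are given by rule for the 4 largest rises and falls called in each WT stage step (mean of at least 1 CPM, no overlap), the 6 highest members per kb, sex-linked members and H2afb1. Other members with values per library were chosen after their values were seen. The ratio of related members used counts with 0.5 added, per kb. Per-library values of the spermatozoa stage came from 2 WT libraries and 1 KO library, so KO was not tested there.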

Additional observations from a re-analysis of the deposited data

How the results depend on the processing

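Counts of members called between stages stayed within 1.5 times their main values under every alternative that was run. With each library left out in turn, the WT step from pachytene to round cells had 18 to 21 members up and 14 to 18 down, and the KO step 18 to 20 up and 17 to 18 down. From round to condensing cells WT had 8 to 10 up and 8 to 12 down, and KO 10 to 12 up and 12 to 16 down. From condensing cells to spermatozoa, 10 to 15 were up and 20 to 26 down. KO against WT gave 0 to 0 members in pachytene, 0 to 1 in round and 0 to 0 in condensing cells, 0 to 0 for both interactions, and 0 to 1 for the average over stages. The 1 in round cells was Usp30 without round WT replicate 1. For the average over stages, chosen after seeing the data, 1 member (Usp3) was called with no filter on low counts, 1 without pachytene KO replicate 1 and 1 without condensing WT replicate 2; the cause was not tested. Single results were compared with their alternatives only for members called in a stage step and for other results chosen for printing. Of these 2486 comparisons, 124 lost a call, 4 gained one and none changed direction. Outside this set members did change direction. An example is *Usp22* between KO and WT round cells, with log2 differences from -0.27 to 0.33 over its alternatives. Scaling by library size alone moved the median of all genes to -0.20 (log2) from pachytene to round cells in WT, with 17 members up and 20 down. Over all 14011 genes tested 4189 were then up and 5778 down. Deviations of same-numbered WT and KO libraries correlated at -0.116, -0.219 and -0.252 in pachytene cells, 0.32, 0.143 and 0.083 in round cells and 0.126, -0.053 and 0.144 in condensing cells. In no stage were all 3 above 0.1, so the numbers were not taken as pairs. In pachytene cells 0 of 3 and in round and condensing cells 2 of 3 correlated best with their own number. With the replicate block, 18 members rose and 17 fell from pachytene to round cells in WT and 17 and 18 in KO, 10 and 11 changed from round to condensing cells in WT and 11 and 12 in KO, 14 rose and 26 fell into spermatozoa, and 0 were called between KO and WT. Over all genes the block gave 18 higher and 43 lower in KO round cells (1 and 1 without it), 9 and 17 in condensing cells (0 and 1) and 0 in pachytene cells.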
